A study of Mus musculus with 12 samples.

Results

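Fragments of 5S and 5.8S ribosomal RNA copies were followed in small RNA-seq libraries of mouse embryonic stem cells (ESCs). The members were selected on measured values, namely all annotated copies whose name begins with n-R5s or n-R5-8s and that held at least 1 read in the sum over the 12 libraries. This rule took 38 of the 181 such rows, 37 of 180 5S copies and the 1 5.8S copy, n-R5-8s1, out of 32101 features in the table and 14232 features with a read. Just inside the rule lay 9 copies with 1 read each, and just outside it lay 143 copies with 0 reads. The annotation typed all 38 members as rRNA. As names and types both come from gene annotation, this does not check what the reads are. The 5.8S copy is a different rRNA and is given separately.

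The study sequenced small RNAs from ESCs with and without the DNA methyltransferase Dnmt1 and the small RNA nuclease Dicer. It asked which small RNAs depend on them when DNA methylation is lost. Its methods describe a filter of the reads to 20 to 24 nt before mapping, which is taken here to hold for the deposited values. The libraries fell into 3 groups by the labelled genotype: 6 wild type libraries (WT 1A, 1B, 2A, 2B, 3A and 3B), 2 Dnmt1 -/- libraries (Dnmt1 KO A and B) and 4 Dicer/Dnmt1 -/- libraries, called Dicer/Dnmt1 KO and numbered 1A, 1B, 2A and 2B. The labels give E14 as the background of all libraries. The methods of the study instead describe a loxP-flanked Dnmt1 line of strain C57BL/6 and a Dicer/Dnmt1 line derived from it, with the deletions induced in culture. They also describe a line with constitutive loss of Dicer and inducible loss of Dnmt1. The study reports small RNA-seq of the line with both deletions induced, but the genotype labels do not name the line. No drug treatment, age or time after deletion is labelled for any library. WT 2A and WT 2B carry the title E14 2 without the word WT, and the labels do not say whether the A and B libraries of 1 number were grown separately. The design text speaks of biological and technical replicates without naming them, so that the p-values below measure the spread between libraries, which may be technical in part. Where values of single libraries are listed, those of WT follow the order 1A, 1B, 2A, 2B, 3A, 3B, those of Dicer/Dnmt1 KO the order 1A, 1B, 2A, 2B, and those of Dnmt1 KO the order A, B.

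The 5S rRNA is the smallest RNA of the large ribosomal subunit. It is transcribed by RNA polymerase III from many near-identical genes, under the control of a promoter inside the transcribed sequence that binds the factor TFIIIA (Gtf3a), and it enters the ribosome as a particle with the proteins Rpl5 and Rpl11. The 5.8S rRNA is instead cut out of the long precursor made by RNA polymerase I. Besides the functional genes, mammalian genomes hold many diverged 5S copies that arose when 5S RNA was copied back into DNA, and such copies are often followed by an A-rich tail and flanked by a short direct repeat.

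Because reads of 20 to 24 nt can be assigned to 1 copy only where its sequence differs from the others, the sequences were examined first. The most common sequence, 119 bases long, was shared by 25 copies, all in a tandem cluster of 41 copies on the minus strand of chromosome 8, within an intron of Gm20388 on the opposite strand. The cluster runs from 126062686 to 126145946 of build NCBIM37 (mm9) with a median spacing of 1703 bases between starts. This shared sequence is the one with which every other copy is compared.

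The results turn mainly on 6 copies of the same length that lie outside annotated UTRs. n-R5s2 is at chrX:5684009-5684127 (plus strand), n-R5s194 at chr3:4338998-4339116 (plus), n-R5s136 at chr8:126123761-126123879 (minus), n-R5s210 at chr1:37062284-37062402 (plus), n-R5s115 at chr8:126088186-126088304 (minus) and n-R5s211 at chr1:46431042-46431160 (plus).

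The 25 copies with the shared sequence held 0 reads in all 12 libraries. No 24-base window of these copies was specific to them, as each window occurred between 45 and 87 times in the genome. In all, 37 of the 180 5S copies had no 24-base window that occurred once in the genome, all 37 lay in the tandem cluster, and none held a read. The other 4 copies of the cluster, n-R5s136, n-R5s115, n-R5s109 and n-R5s127, had between 19 and 30 unique windows and together held 268 reads, or 3.11% of the 5S reads. Every member had at least 19 unique windows, with a median of 56 over the 37 5S members. Reads were therefore listed only on copies that can be told apart at this length, and what the identical genes produced cannot be seen in these values. How the authors' mapping placed reads that match several copies is not given in the sources used here.

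**Figure D1:**
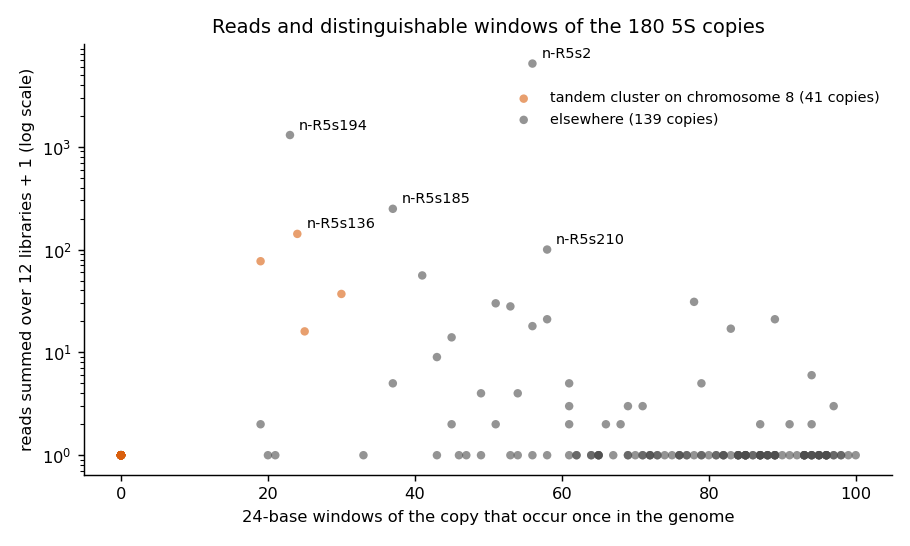
Each point is 1 of 180 5S copies, with its number of 24-base windows that occur once in the genome on the horizontal axis and its reads over 12 libraries plus 1 on a log vertical axis. The 37 cluster copies at 0 windows have 0 reads, and n-R5s2 and n-R5s194 stand above all others.

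A unique window did not make a copy a member, since 106 copies with 20 to 100 unique windows had 0 reads. The members were closer to the shared sequence, with a median identity of 90.8% (range 67.4% to 99.2%), than these 106 copies, whose median was 72.3% (range 54.6% to 96.6%). Copies close to the shared sequence also have fewer unique windows, and the members were selected on their reads, so the difference is given as a description. The 17 5S copies with 10 or more reads had a median identity of 93.3%, and the 20 copies with 1 to 9 reads a median of 86.6%.

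The reads were concentrated on a few of the members. The X-linked copy n-R5s2 held 6435 of the 8623 5S reads (74.6%) and ranked 38th among all features by total reads. The copy n-R5s194 on chromosome 3 held 1298 reads (15.1%), so that both together made up 89.7% of the 5S reads. The other 35 copies shared 890 reads, led by n-R5s185 with 248, n-R5s136 with 141, n-R5s210 with 99, n-R5s115 with 76, n-R5s71 with 55, n-R5s109 with 36, n-R5s211 with 30 and n-R5s195 with 29. The 5.8S copy n-R5-8s1 held 737 reads. Only n-R5s2, n-R5s194 and n-R5-8s1 had a read in all 12 libraries.

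n-R5s2 differed from the shared sequence at 4 positions, 2 of them in the A box of the internal promoter. n-R5s194 differed at 5 positions, all outside the 3 internal promoter elements, A box, intermediate element and C box. Counted from 1 at the 5′ end, the unique 24-base windows inside n-R5s2 spanned bases 6 to 86 and those inside n-R5s194 bases 1 to 65. A fragment of at most 24 nt that lies wholly inside either copy, 3′ of its span, can therefore not be assigned to it. Windows that run into the flanks were not counted here. n-R5s136 differed from the shared sequence at 1 position, n-R5s115 at 2, n-R5s109 at 3, n-R5s211 at 8 and n-R5s210 at 10.

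The internal promoter elements of the shared sequence, the A box (positions 50 to 64), the intermediate element (67 to 72) and the C box (80 to 97), were searched as exact matches on the strand of each copy. All 3 were found in 33 of the 180 5S copies (18.3%), in 5 of the 37 copies with a read (13.5%) and in 28 of the 143 copies without one (19.6%). Of these 28, all lay among the cluster copies with no unique window, and 0 of the 106 copies with unique windows but no read held the 3 elements. The 5 members with all 3 were among the 17 with 10 or more reads, and n-R5s194, n-R5s185, n-R5s136, n-R5s109 and n-R5s211 are these copies. The most-read copy, n-R5s2, lacked an exact A box and held the other elements. A match or its absence says nothing of binding by the factors.

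The flanks were searched for A runs and direct repeats. A run of at least 6 A within 30 bases downstream, together with a direct repeat of at least 8 bases between the last 30 bases upstream and the first 60 bases downstream, was found at 14 of the 180 5S copies (7.78%). Of these 14, 9 were members (24.3% of 37), 5 were among the 143 copies without a read (3.50%) and 0 were in the tandem cluster. The other 28 5S members, 4 of them in the cluster, lacked the combination. n-R5s2 was one of the 9, and its flanks are shown with those of n-R5s195, whose repeat was the longest among the members at 15 bases. The repeat is in capitals, and in both copies the upstream repeat ends directly before the first base while the downstream stretch begins directly after the last.
n-R5s2 upstream: ATTCTAAGGTA
n-R5s2 downstream: taaaaaaaatATTCTAAGGTA
n-R5s195 upstream: AAGAATTTAGGGTTC
n-R5s195 downstream: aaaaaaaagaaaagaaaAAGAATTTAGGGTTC

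The flanks of n-R5s194 held neither an A run nor such a repeat. n-R5s185, at chr4:53873524-53873642 on the plus strand, had an A run of 10 and a repeat of 10 bases, and it lies on the same strand within the last exon of Tmem38b, in its UTR, so that fragments of Tmem38b and of the copy cannot be told apart there. In all, 17 of the 37 5S members lay within another annotated gene, against 90 of the 143 5S copies without a read. These 90 include the 37 cluster copies without a unique window, all within Gm20388. Outside the cluster, 13 of 33 copies with a read and 53 of 106 without one lay within another gene.

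The libraries were shallow and uneven, with 8710 to 245184 library reads, so that 1 read stood for 4.08 to 115 RPM (reads scaled to 1000000 library reads). MiRNAs took 6.31% to 12.1% of the Dicer/Dnmt1 KO counts, beside 29.5% to 65.7% of WT and 51.3% and 53.3% of Dnmt1 KO counts, so that all other RNAs together took a larger share there. Mir295, a marker of ESCs that needs Dicer for its maturation, had 85 to 6387 reads in WT and 14 to 123 in Dicer/Dnmt1 KO. Mir294 and Mir295 both fell against WT (log2 differences of -6.45 and -4.78, limma adjusted p = 7.77e-07 and 8.15e-07). The other listed ESC markers, Pou5f1, Nanog, Sox2 and Zfp42, had 0 to 11 reads in a library and did not pass the filter for testing. In Dicer/Dnmt1 KO, Sox2 had 1, 1, 0 and 6 reads, Nanog 3, 0, 0 and 3, Zfp42 1, 0, 0 and 0, and Pou5f1 0 in each library. The targeted genes were nearly unread: Dnmt1 had 0 to 18 and Dicer1 0 to 3 reads in a library, which does not check the genotypes. Markers of differentiated cells (Gata4, Gata6, Sox17, Col1a1 and Vim) summed to 0 to 10 reads in a library, with the 10 reads in Dicer/Dnmt1 KO 2B, and their part in the results was not tested. Results are also given without WT 2A and WT 2B, because their title differs. These libraries also held the lowest 5S shares of WT, so that leaving them out raises the WT level of the outcome itself, and the p-values without them are not independent support.

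As a share of library reads, the 37 5S copies together made up 0.678%, 0.561%, 0.0620%, 0.142%, 0.514% and 0.891% of the WT libraries. The Dnmt1 KO shares were 0.126% and 0.153%. The Dicer/Dnmt1 KO shares reached 1.17%, 2.57%, 2.43% and 1.32%. All Dicer/Dnmt1 KO libraries lay above all WT libraries, whereas the Dnmt1 KO libraries lay beside WT 2A and WT 2B, at the low end of WT. The mean of WT was 0.475% ± 0.318 (SD, n = 6), that of Dnmt1 KO 0.139% ± 0.0196 (SD, n = 2) and that of Dicer/Dnmt1 KO 1.87% ± 0.730 (SD, n = 4), which is 3.94 times the WT mean. The 95% Wilson intervals, which cover counting error only, ran from 0.0337% to 0.114% for the 10 reads of WT 2A, from 0.844% to 0.941% for WT 3B and from 1.04% to 1.31% for Dicer/Dnmt1 KO 1A.

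The overlap of single libraries depended on the reference, while the order of the group means did not. After scaling with trimmed means of M values (TMM), which centres most features and takes out much of the loss of miRNAs, the summed 5S level of Dicer/Dnmt1 KO was 6856, 13150, 15590 and 13050 RPM, that of WT ran from 1479 to 8003 RPM and that of Dnmt1 KO was 1714 and 2009 RPM. Dicer/Dnmt1 KO 1A then lay below WT 1A (7480 RPM) and WT 3B (8003 RPM), while the other 3 remained above all WT libraries. On the log2(RPM + 10) scale the mean of Dicer/Dnmt1 KO was 1.52 above WT and 2.64 above Dnmt1 KO, and the difference of Dnmt1 KO to WT was -1.13, with a residual SD between libraries of one group of 0.82. Without WT 2A and WT 2B these differences were 1.09, 2.99 and -1.91. Scaled to library reads alone the first and second of these differences were 2.37 and 3.66, while the median over all tested features moved by 0.70 and 0.91. Per 100 snoRNA counts Dicer/Dnmt1 KO held 4.45 to 9.0 reads of 5S, WT held 0.955 to 5.03 and Dnmt1 KO held 1.24 and 1.64, so that the ranges of WT and Dicer/Dnmt1 KO overlapped. As these are bulk libraries, more fragments in each cell and more cells that hold them cannot be told apart. No p is given for the sum, since its members were chosen with these data known.

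**Figure D2:**
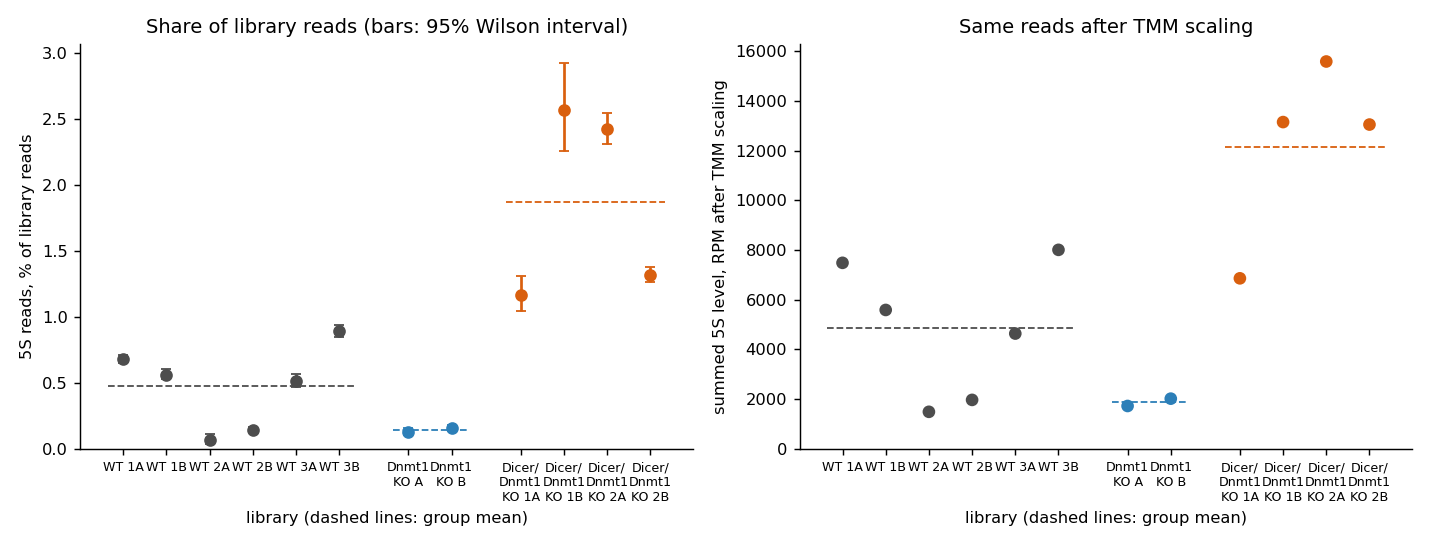
Summed reads of the 37 5S copies in each library, as a percentage of library reads with 95% Wilson intervals (left) and in RPM after TMM scaling (right), with dashed lines at group means. The 4 Dicer/Dnmt1 KO libraries sit between 1.17% and 2.57% on the left, above all WT libraries, and on the right Dicer/Dnmt1 KO 1A falls among them.

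The copies kept similar proportions in most libraries. n-R5s2 took 70.6% to 81.4% of the 5S reads in 5 of the 6 WT libraries and 40.0% in WT 2A, where it had 4 of 10 reads. Its Dnmt1 KO shares were 63.5% and 81.2%, and its Dicer/Dnmt1 KO shares 68.2%, 83.9%, 75.8% and 74.3%. The groups thus overlapped widely in the share of the leading copy. n-R5s194 took 13.8% to 16.2% in WT 1A, 1B, 3A and 3B and 10.5% to 17.7% in Dicer/Dnmt1 KO, but 4.02% in WT 2B, 4.71% in Dnmt1 KO A and 6.06% in Dnmt1 KO B. There were accordingly 4.37 to 5.62 reads of n-R5s2 for each read of n-R5s194 in WT 1A, 1B, 3A and 3B, and 20.3, 13.5 and 13.4 in WT 2B, Dnmt1 KO A and Dnmt1 KO B. WT 2B had 8 reads of n-R5s194, Dnmt1 KO A 4 and Dnmt1 KO B 10.

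The remaining 35 copies took 8.97% to 14.6% of the 5S reads in the WT libraries other than WT 2A, which had 5 such reads among 10. They took 31.8% (95% Wilson interval 22.8% to 42.3%) in Dnmt1 KO A and 12.7% in Dnmt1 KO B. In Dicer/Dnmt1 KO their share was 21.3% (17.0% to 26.4%) in 1A and 5.36% to 9.61% in 1B, 2A and 2B. Dnmt1 KO A and Dicer/Dnmt1 KO 1A thus differed from the other library or libraries of their genotype beyond counting error, and the genotypes overlapped.

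**Figure D3:**
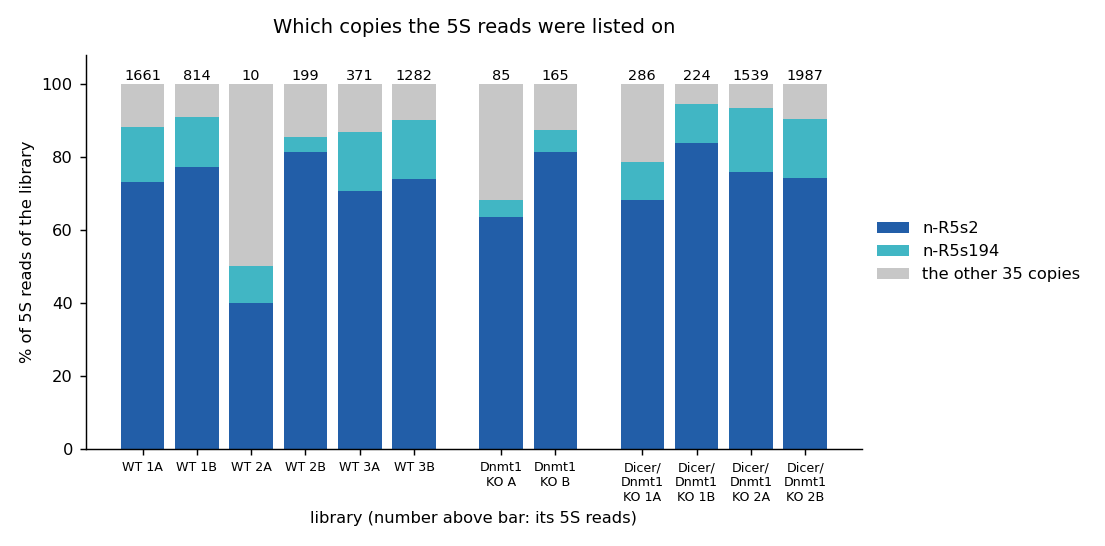
Bars give the percentage of the 5S reads of each library that were listed on n-R5s2, n-R5s194 and the other 35 copies, with the number of 5S reads above each bar. n-R5s2 takes most reads in every library but WT 2A, and the other copies take 31.8% in Dnmt1 KO A and 21.3% in Dicer/Dnmt1 KO 1A.

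Single copies were compared between the groups with limma on log2(RPM + 10) after TMM scaling, over the 683 features with at least 111 RPM in at least 2 libraries and 15 reads in all. Of the 38 members 8 passed this filter and 30 did not, among them n-R5s115, n-R5s109 and n-R5s195. As a copy can pass through the group in which it is high, the 8 are described without reading support from their number.

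The comparison of Dicer/Dnmt1 KO with WT asks which small RNAs differ when Dicer and Dnmt1 are both missing. The loss of Dicer and that of Dnmt1 cannot be told apart in it. None of the 8 members was called by limma at an adjusted p under 0.05, against 24.2% of all tested features (165 of 683), and 3 had an unadjusted p under 0.05, against 227 of all features. The voom alternative called 1 of the 8, n-R5s2, against 192 of all features. Their median log2 difference was 1.23, beside -0.09 over all 683 features, and 7 of the 8 lay above 0. In RPM, 3 of the 8 lay higher in all Dicer/Dnmt1 KO than in all WT libraries, against 10.4% of all features. These were n-R5s2, n-R5s185 and n-R5-8s1, and after TMM scaling the groups overlapped for all 3.

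n-R5s2 had 1215, 629, 4, 162, 262 and 949 WT reads, and 195, 188, 1166 and 1477 reads without Dicer and Dnmt1. In RPM its level was 248 to 6594 in WT with a median of 3984, and 7962 to 21580 in Dicer/Dnmt1 KO. In RPM the groups did not overlap. After scaling they did, as Dicer/Dnmt1 KO 1A was at 4675 RPM and WT 1A and 3B at 5472 and 5924 RPM. The log2 difference was 1.67 (SE 0.61, limma adjusted p = 0.0626), short of the threshold. Without WT 2A and WT 2B it was smaller, 1.12 (SE 0.37), and called (limma adjusted p = 0.0441), as 1 of 8 members against 29.5% of 660 features.

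n-R5s194 ranged from 57.1 to 1445 RPM in WT and from 1225 to 4288 RPM in Dicer/Dnmt1 KO, so that the groups overlapped through WT 3B. The log2 difference was 1.71 (SE 0.75, limma adjusted p = 0.129), and 0.89 without WT 2A and WT 2B. n-R5s185 ranged from 0 to 243 RPM in WT and from 245 to 599 RPM in Dicer/Dnmt1 KO, with a log2 difference of 1.57 (SE 0.82, limma adjusted p = 0.215), and 0.74 without WT 2A and WT 2B. Its lowest Dicer/Dnmt1 KO value rests on 6 reads.

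The cluster copy n-R5s136 lies 1 base away from the shared sequence. It had 49.9 to 216 RPM in WT and 0 to 245 RPM in Dicer/Dnmt1 KO, whose libraries held 6, 0, 5 and 27 reads. Its log2 difference was -1.11 (SE 0.77, limma adjusted p = 0.376), the only one of the 8 below 0, although its mean in RPM was 126 in Dicer/Dnmt1 KO and 118 in WT. Whether it differs from n-R5s2 in this comparison was not tested.

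**Figure D4:**
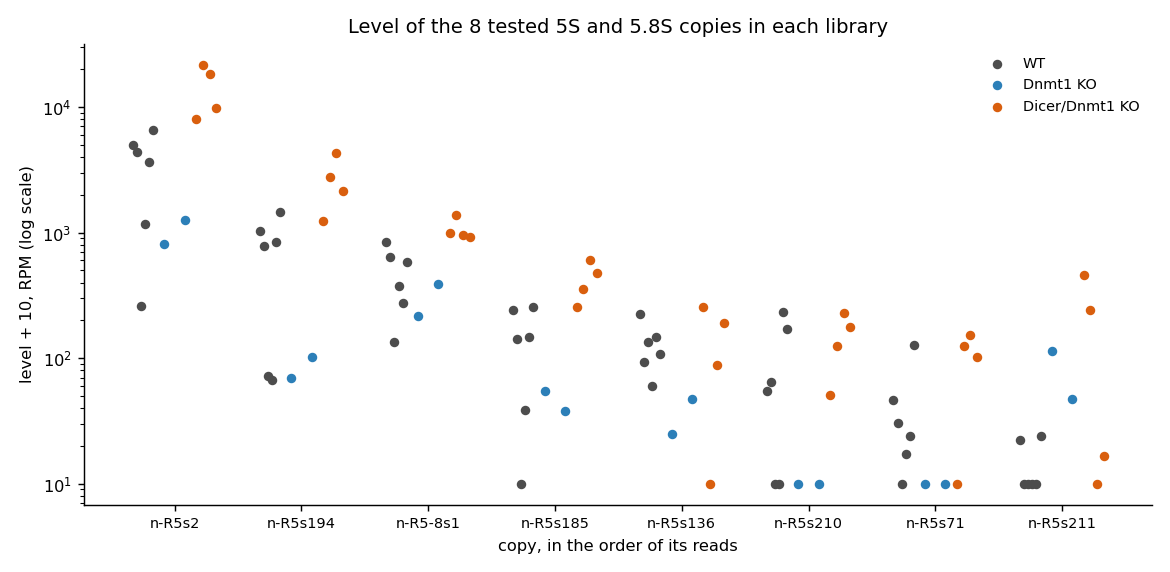
Level plus 10 in RPM on a log axis for the 8 tested copies, in the order of their reads, with 1 point per library coloured by group. For n-R5s2 the Dicer/Dnmt1 KO points lie between 7962 and 21580 RPM before the 10 is added, above the WT points, while for n-R5s136 and n-R5s71 the groups intermingle.

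The comparison of Dnmt1 KO with WT asks which small RNAs accompany the loss of Dnmt1 alone. None of the 8 members was called by limma, against 6.88% of all tested features (47 of 683), and 2 had an unadjusted p under 0.05, against 125 of all features. The voom alternative called 0 of the 8, against 80 of all features. Their median log2 difference was -1.32, beside 0.13 over all features. n-R5s2 had 54 and 134 Dnmt1 KO reads, or 798 and 1245 RPM, below WT 1A, 1B, 3A and 3B and near WT 2B at 1155 RPM. Its log2 difference was -1.04 (SE 0.77, limma adjusted p = 0.528). n-R5s194 had 59.1 and 92.9 RPM, with a log2 difference of -2.14 (SE 0.95, limma adjusted p = 0.255).

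This comparison turned on the libraries titled E14 2. Without WT 2A and WT 2B, 4 of the 8 members were called and all 4 were lower in Dnmt1 KO, against 27.4% of 660 features called in either direction. The log2 differences were -1.94 (SE 0.46, limma adjusted p = 0.0114) for n-R5s2, -3.30 (SE 0.53, limma adjusted p = 0.00146) for n-R5s194, -1.83 (SE 0.57, limma adjusted p = 0.0346) for n-R5s185 and -3.51 (SE 0.78, limma adjusted p = 0.00867) for n-R5s210. Dnmt1 KO A and B held 0 reads of n-R5s210 while the 4 remaining WT libraries held 8 to 23, and 3 reads, the upper limit that a count of 0 allows, are 44.3 and 27.9 RPM in the 2 libraries. WT 2A and WT 2B also held 0 reads of n-R5s210, so that these WT libraries lay with Dnmt1 KO for this copy.

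n-R5s211 on chromosome 1 was the 1 tested member with a fitted value above 0 in Dnmt1 KO. It had 3, 0, 0, 0, 0 and 2 WT reads, 7 and 4 Dnmt1 KO reads, and 11, 2, 0 and 1 reads without Dicer and Dnmt1. The Dnmt1 KO libraries were at 103 and 37.2 RPM and the WT libraries with a read at 12.2 and 13.9 RPM, but 3 reads, the limit that a count of 0 allows, are 186 RPM in WT 2A and 41.6 RPM in WT 3A. The log2 difference was 2.84 (SE 1.08, limma adjusted p = 0.169), and against WT the value in Dicer/Dnmt1 KO was 1.89 (SE 0.85, limma adjusted p = 0.137). With 30 reads in all, 18 of them in Dnmt1 KO A and Dicer/Dnmt1 KO 1A, neither difference passed the test. Without Dicer/Dnmt1 KO 2A the second was 2.79 and called (limma adjusted p = 0.0287). The copy passed the filter through Dicer/Dnmt1 KO 1A and 1B alone.

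The comparison of Dicer/Dnmt1 KO with Dnmt1 KO, which differ in Dicer by their genotype labels, shares its libraries with the other comparisons. It called 2 of the 8 members, n-R5s2 and n-R5s194, both higher in Dicer/Dnmt1 KO, against 22.8% of all tested features (156 of 683), of which 8 were higher and 148 lower. n-R5s2 rose by a log2 difference of 2.71 (SE 0.81, limma adjusted p = 0.0258) and n-R5s194 by 3.84 (SE 1.01, limma adjusted p = 0.0106). Every Dicer/Dnmt1 KO library lay above both Dnmt1 KO libraries for each of them, also after scaling. For n-R5s2 these were 7962 RPM or more against at most 1245 RPM, and for n-R5s194 1225 RPM or more against at most 92.9 RPM. How many of all tested features had this order was not counted, so no support is read from it. The other 6 members were not called. n-R5s210 had a log2 difference of 3.15 (SE 1.21, limma adjusted p = 0.0893), n-R5s71 of 2.37 (SE 1.05, limma adjusted p = 0.161) and n-R5s211 of -0.94 (SE 1.15, limma adjusted p = 0.690).

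Both calls ended with either Dnmt1 KO library left out and with A and B libraries summed (limma adjusted p = 0.105 for n-R5s2 and 0.177 for n-R5s194), and that of n-R5s2 with A and B as a random block (limma adjusted p = 0.0502). Without Dnmt1 KO A the adjusted p of n-R5s2 and n-R5s194 was 0.217 and 0.110, and without Dnmt1 KO B it was 0.145 and 0.0555, with log2 differences of 2.39 to 3.96 (limma). The call of n-R5s2 also ended without WT 3A, Dicer/Dnmt1 KO 1B, 2A or 2B (limma adjusted p = 0.0612, 0.0518, 0.0654 and 0.0521). Without WT 2A and WT 2B, 4 of 8 members were called, against 33.5% of 660 features, with n-R5s185 and n-R5s210 added to n-R5s2 and n-R5s194.

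**Figure D5:**
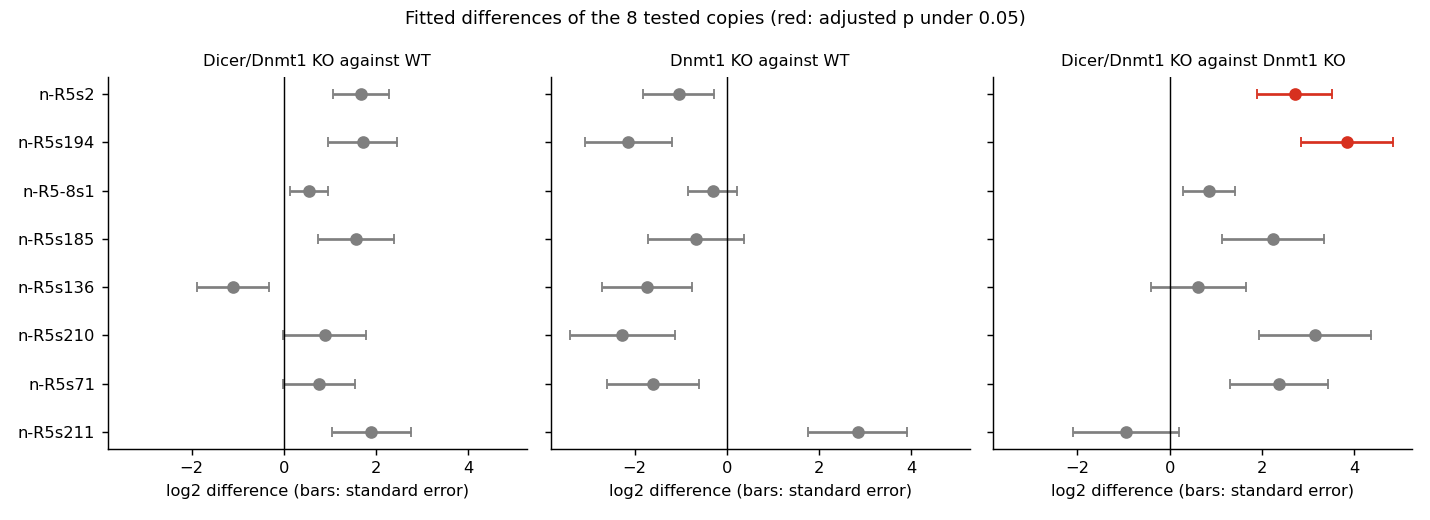
Log2 differences of the 8 tested copies in the 3 comparisons, with bars for the standard error and red for an adjusted p under 0.05. Red points are n-R5s2 at 2.71 and n-R5s194 at 3.84 in the comparison of Dicer/Dnmt1 KO with Dnmt1 KO, and n-R5s136 is the one value below 0 against WT in Dicer/Dnmt1 KO.

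The 5.8S copy n-R5-8s1 was not called in any comparison. It had 202, 91, 2, 51, 19 and 83 WT reads, 14 and 41 Dnmt1 KO reads, and 24, 12, 60 and 138 reads without Dicer and Dnmt1. Its mean level in Dicer/Dnmt1 KO was 1055 RPM ± 217 (SD, n = 4), that in WT 463 RPM ± 259 (SD, n = 6) and that in Dnmt1 KO 294 RPM ± 123 (SD, n = 2). Compared with WT, the scaled log2 difference was 0.55 in Dicer/Dnmt1 KO (SE 0.42, limma adjusted p = 0.436) and -0.31 in Dnmt1 KO (SE 0.53, limma adjusted p = 0.812). Between both knockouts it was 0.85 (SE 0.56, limma adjusted p = 0.406). For each read of n-R5-8s1, Dicer/Dnmt1 KO libraries held 11.9 to 25.7 reads of 5S, WT libraries 3.90 to 19.5 and Dnmt1 KO libraries 4.02 and 6.07. The WT and Dicer/Dnmt1 KO ranges overlapped, and the Dicer/Dnmt1 KO range lay above that of Dnmt1 KO. Another row of 5.8S, on chromosome 6 and outside the rule, held 1 to 30 reads in a library and is not part of this ratio.

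The 30 members that were not tested summed to 3 to 63 reads in a WT library, to 16 and 10 in the Dnmt1 KO libraries and to 37, 5, 35 and 54 where Dicer was missing too. Their sum in Dicer/Dnmt1 KO was 1511, 574, 552 and 358 RPM, in WT 121 to 257 RPM and in Dnmt1 KO 236 and 92.9 RPM. These ranges did not overlap, but after TMM scaling they did, as WT 2A was at 444 RPM from 3 reads and Dicer/Dnmt1 KO 1B at 294 RPM from 5. Dicer/Dnmt1 KO 1A stood out for these copies, with 11 reads of n-R5s115, 7 of n-R5s28, 6 each of n-R5s109 and n-R5s92 and 4 of n-R5s127. In Dicer/Dnmt1 KO 2B, which was sequenced more deeply, the same copies had 9, 3, 5, 1 and 3 reads.

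Other genes of 5S biology gave little to set beside the members. Of 29 listed genes of the 5S particle and its transcription, such as Rpl5, Rpl11, the TFIIIA gene Gtf3a, the TFIIIC subunits Gtf3c1 to Gtf3c6 and the RNA polymerase III subunits, 28 were in the table and 27 had a read. Only Rpl5, with 1 to 52 reads in a library, passed the filter, and it was not called in any comparison (log2 differences of 0.12, 0.78 and -0.66). Of the other rRNA features, 4 passed the filter, the mitochondrial mt-Rnr1 and mt-Rnr2, 1 other row of 5.8S and AL807771.1, and none of the 4 was called in any comparison. Against WT in Dicer/Dnmt1 KO, mt-Rnr1 had a log2 difference of -2.03 (limma adjusted p = 0.129) and mt-Rnr2 of -0.99 (limma adjusted p = 0.293), opposite in sign to those of n-R5s2 and n-R5s194. The other row of 5.8S was at 0.11 and AL807771.1 at 0.14, of the same sign as n-R5s2 and n-R5s194. None of these values passed the test. WT 2B held 9855 reads of mt-Rnr1 and 5126 of mt-Rnr2, beside 157 to 1521 and 107 to 1501 in the other WT libraries. Of 151 other features typed as rRNA, 8 had a read. The 9 symbols listed for other RNA polymerase III transcripts, such as Rn7sk and Rmrp, matched no row of the table. Such transcripts were not searched under other names, so their levels are not given here.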

How the data were processed

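Small RNA of mouse ESCs was sequenced in 12 libraries and trimmed and aligned by the authors (Trim Galore 0.3.5, Bowtie2 2.2.6 and build NCBIM37 in the submitters' processing notes). The deposited values are log2 RPM per annotated feature, made by the authors, with 0 counts set to a fixed low value. Reads were recovered from them by taking the column minimum as 0.9 reads, after which 100% of values were whole within 0.02. The table holds 89 further value columns that no label of these samples names, and they were not used. The members and gene lists were chosen with earlier results of these data known. Named members are those called in any comparison, the 10 with most reads and the 5.8S row, and others were named after their values were seen. Differences were tested with limma 3.58.1 (R 4.3.3, trend) on log2(RPM + 10) after TMM scaling, in 1 model over 3 groups, with Benjamini-Hochberg adjustment over all 683 features. The script was tested on simulated data. Count models were not used, as the deposited unit is log2. Alternatives covered scaling, filter, pseudocount, replicate blocks, voom and libraries left out. The sequences of the copies themselves are not reported here. Flanks, differences and window counts come from the NCBIM37 genome, whose annotation (GENCODE vM1) matched all 32101 features by position and name. Same-numbered WT and Dicer/Dnmt1 KO libraries did not deviate together, which cannot decide whether they were paired. Blocks are given in the closing section.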

Additional observations from a re-analysis of the deposited data

Results flagged for a closer look

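The largest or smallest library of a group was checked against Dixon's critical value for 22 groups of values, of which chance flags about 1 in 20. 4 values stood apart. The 5.8S level of Dicer/Dnmt1 KO 1B was 1378 RPM, from 12 reads, against 916 to 980 RPM in the other 3. WT 2A had 40.0% of its 5S reads on n-R5s2 and 50.0% outside n-R5s2 and n-R5s194, but it held 10 5S reads, and the 95% Wilson interval of the first share runs from 16.8% to 68.7%. n-R5s71 was at 118 RPM in WT 3B, from 17 reads, and at most 36.7 RPM in the other WT libraries.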

How the results depend on the processing

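None of the alternatives turned the direction of a summed 5S difference. With libraries left out one at a time, the sum differed from WT by 1.22 to 1.87 in Dicer/Dnmt1 KO and by -1.41 to -0.67 in Dnmt1 KO on the log2 scale, and by 2.47 to 2.86 between both knockouts. Scaling to library reads alone gave 2.37 for the first and 3.66 for the last. It called 2 members for Dicer/Dnmt1 KO against WT and 200 of all features, where the main fit called 0 and 165. That count of members was 1 with median-of-ratios scaling, without both E14 2 libraries, with voom and with scaling from snoRNAs and snRNAs. These settings called 170, 195, 192 and 160 of all features. With single WT or Dicer/Dnmt1 KO libraries left out the member count was 0 to 1. It was 1 without WT 1A or WT 3B (n-R5s2, 158 of all features each) and without Dicer/Dnmt1 KO 2A (n-R5s211, 153 of all features). For Dnmt1 KO against WT the member count rose from 0 (47 of all features) to 4 without both E14 2 libraries (181 of all features). It stayed at 0 with single WT or Dicer/Dnmt1 KO libraries left out. For Dicer/Dnmt1 KO against Dnmt1 KO the count of 2 (156 of all features) became 0 without the filter on low values (134 of all features). It was 1 with A and B as a random block (139). With A and B libraries summed, which leaves 1 Dnmt1 KO sample, the summed 5S difference was 2.59. The member count was 4 without both E14 2 libraries (221 of all features), with only the 2 groups in the fit (154), and without WT 2A and Dicer/Dnmt1 KO 1B (182). With single libraries left out it ran from 0, without either Dnmt1 KO library, to 4, without WT 2A. Without WT 2A, 178 of all features were called. Where 1 Dnmt1 KO library remained, it was assumed to vary like the other groups. The cause was not tested. The replicate block of the letter A or B left these counts at 0, 0 and 2, and that of number and letter, possible for Dicer/Dnmt1 KO against WT, at 0. Same-numbered WT and Dicer/Dnmt1 KO libraries had deviation correlations of -0.285 to 0.112. These few values from libraries of uneven depth cannot decide whether the cultures were paired. The scaling from snoRNAs and snRNAs, the reference without miRNAs and the joint removal of WT 2A and Dicer/Dnmt1 KO 1B were chosen after seeing the data. Depth limits the small copies: 3 reads, which a count of 0 allows, are 12.2 RPM in WT 1A and 344 RPM in Dicer/Dnmt1 KO 1B.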
